A study of Mus musculus with 6 samples.

Results

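The growth hormone receptor, STAT5 and IGF-1 axis was read in livers of LIRKO mice, a liver knockout of the insulin receptor, and of Flox littermates. Its 8 genes were taken by name: *Ghr* and *Prlr* (receptors), *Stat5a* and *Stat5b* (transcription factors), *Socs2* and *Cish* (inhibitors), and *Igf1* and *Igfals* (secreted products). In the platform annotation, 7 of them were read by 11 probe sets that carry their symbol alone, of 12422 probe sets and 8251 such genes in all, and no probe set carried the symbol of *Prlr*. LIRKO mice carry floxed alleles of *Insr*, the insulin receptor gene, in both copies together with Cre recombinase driven by the albumin promoter, which is active in hepatocytes. Flox mice carry the same floxed alleles without Cre. All were non-fasted males of 2 to 3 months on chow and a mixed genetic background, and livers of both groups went onto Affymetrix oligonucleotide arrays. There were 3 LIRKO and 3 Flox arrays, each with RNA pooled from 2 to 3 mice, so that every spread given here is one between pools.

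Growth hormone binds its receptor on hepatocytes, and the receptor-bound kinase JAK2 phosphorylates STAT5, which enters the nucleus and activates genes such as *Igf1*. The liver is the main source of circulating IGF-1, which travels in a complex with an IGF binding protein and the acid-labile subunit, the product of *Igfals*. SOCS2 and CIS are induced by STAT5 and in turn dampen the receptor. In rodents, males receive growth hormone in pulses and females more evenly, and STAT5b carries much of the resulting sex difference in liver gene expression.

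STAT5 binds the palindrome TTCNNNGAA, which reads the same on both strands, and the axis holds 2 kinds of STAT5 target, the inhibitors and the secreted products, that are set side by side here. RefSeq promoter windows (GRCm38.p6, 250 bases before to 50 after a start site) were at hand for 7 of the 8 genes, all but *Socs2*, with 14 windows in all. The letters occurred in 4 of these windows, of *Cish*, *Igfals* and *Prlr*, and in 8.3% of all 32851 windows. The stretches of *Cish* and *Igfals* are shown because both genes were measured and differed in how they stood in LIRKO liver. Capitals mark the motif.
Cish (chr9:107296654-107296683, + strand): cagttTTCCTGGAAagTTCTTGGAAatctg
Igfals, first window (chr17:24877598-24877627, + strand): gatctataatTTCTCAGAAaagaggctgag
Igfals, second window (chr17:24878163-24878192, + strand): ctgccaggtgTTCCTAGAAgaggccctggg
The *Cish* stretch held the motif 2 times, the first at the annotated start site itself and the second 11 bases further on. As many as 2 matches in a window occurred in 0.457% of all windows. The *Igfals* matches began at positions -236 and -58 from 2 of its start sites. No match lay in the windows of *Ghr*, *Stat5a*, *Stat5b* or *Igf1*, which says only that these letters are not in those windows.

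Values are the deposited log2 values after robust multichip averaging (RMA), so a difference of 1 is a doubling. The single probe set of *Insr*, 102146_at, read 5.37, 5.99 and 6.06 on LIRKO 1, LIRKO 2 and LIRKO 3 and 5.45, 5.22 and 5.38 on Flox 1, Flox 2 and Flox 3. Since its position relative to the floxed exon is unknown here, it does not check the labels. LIRKO 2 and LIRKO 3 stood apart from the other 4 arrays. Probe sets were split by Flox level into 10 equal groups. In the brightest group the median difference from the Flox mean was -0.01, -1.09 and -0.89 for LIRKO 1 to LIRKO 3. In the dimmest group it was -0.03, 0.23 and 0.15. The axis is therefore also given on LIRKO 1 alone. Of 10 hepatocyte markers 8 were measured, and their mean level was 11.67 to 12.86 on LIRKO arrays and 12.84 to 12.93 on Flox arrays. Their median log2 fold change was -0.67, and it was -0.09 after quantile normalization and 0.28 after cyclic loess, so its direction depends on the scaling. The mean of 9 Kupffer cell markers was 7.33 to 8.38 on LIRKO arrays and 7.53 to 8.28 on Flox arrays. The mean of 8 stellate cell markers was 7.53 to 8.27 on LIRKO arrays and 7.43 to 7.71 on Flox arrays, and that of 6 muscle markers 5.92 to 6.70 on LIRKO arrays and 5.67 to 5.72 on Flox arrays. None of these markers passed the test, and their part in the results was not tested.

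Transcripts of *Ghr*, *Igf1* and *Igfals* were lower on every LIRKO array than on every Flox array, as was 1 of the 2 probe sets of *Stat5a* by a smaller difference. That of the inhibitor gene *Socs2* was higher on average. The arrays read transcripts only, and no protein. None of these 11 probe sets passed limma with Benjamini-Hochberg adjustment over all 12422 probe sets at 0.05, at which 16, or 0.129%, of all probe sets were called. At an unadjusted p under 0.05, 7 of the 11 were lower and 1, *Socs2*, was higher, against 1679 lower and 923 higher of all 12422 probe sets. All 3 LIRKO arrays lay below all 3 Flox arrays on 7 of the 11, against 14.9% of all probe sets and 34.4% of the brightest group, which holds 5 of the 11. Of these 7, *Ghr*, *Igf1* and *Igfals* gave 2 each and *Stat5a* gave 1, so that they are partly repeat readings of a gene.

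**Figure D1:**
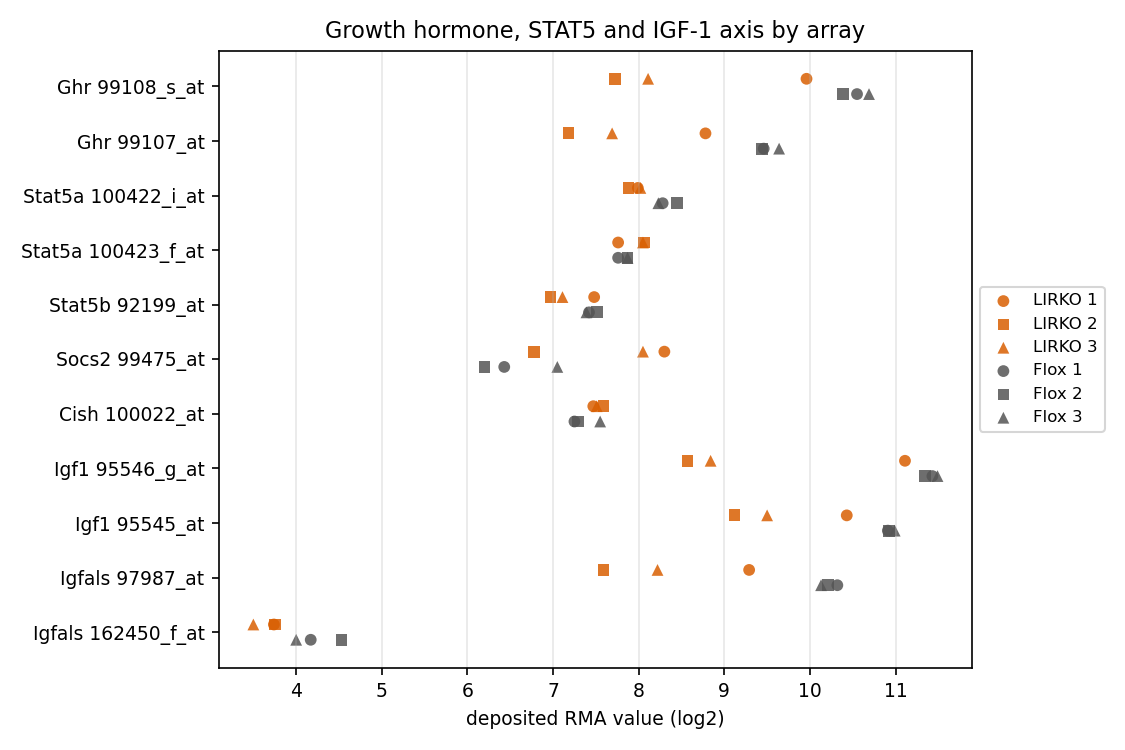
Level as deposited (log2, horizontal axis) for the 11 probe sets of the axis on each of the 6 arrays; orange symbols are LIRKO, grey symbols are Flox, and circles, squares and triangles are arrays 1, 2 and 3. For *Ghr*, *Igf1* and *Igfals* all orange symbols lie left of the grey ones, with LIRKO 1 nearest to Flox on all of these probe sets but 162450_f_at, whereas the *Socs2* symbols of LIRKO reach to 8.30, beyond the highest Flox value of 7.05.

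*Ghr* encodes the growth hormone receptor and, in mice, also its soluble binding protein through alternative splicing. Probe set 99108_s_at of *Ghr* read 9.96, 7.72 and 8.11 on LIRKO 1 to LIRKO 3, against 10.55, 10.39 and 10.69 on Flox 1 to Flox 3. The groups did not overlap, and LIRKO 1 lay between the other LIRKO arrays and Flox. The means were 8.60 ± 1.19 in LIRKO and 10.54 ± 0.148 in Flox (SD, n = 3 each), a log2 fold change of -1.95 (95% interval -3.23 to -0.66, adjusted p = 0.237 from limma). Probe set 99107_at of *Ghr* read 8.78, 7.18 and 7.69 in LIRKO and 9.46, 9.44 and 9.64 in Flox, again without overlap. Its means were 7.88 ± 0.820 in LIRKO and 9.51 ± 0.109 in Flox (SD, n = 3 each), a log2 fold change of -1.63 (95% interval -2.53 to -0.73, adjusted p = 0.237 from limma). On LIRKO 1 the differences from the Flox mean were -0.59 and -0.73, at percentiles 5.07 and 3.30 of the brightest group of probe sets, to which both belong. Which transcript forms each probe set reads is not known here.

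The paralogous STAT5 genes differed from Flox by less than *Ghr* did, and their probe sets did not share a direction. Probe set 100422_i_at of *Stat5a* read 7.99, 7.88 and 8.02 in LIRKO and 8.28, 8.45 and 8.23 in Flox, a log2 fold change of -0.36 (95% interval -0.64 to -0.07, adjusted p = 0.237 from limma). The groups did not overlap there. On LIRKO 1 the difference from the Flox mean was -0.33, where the median of probe sets of like level was -0.02, and it ranked at percentile 7.73 of that level group. On LIRKO 2 and LIRKO 3 the differences, -0.44 and -0.30, were about those of the level group, whose medians were -0.47 and -0.38. Probe set 100423_f_at of *Stat5a* read 7.76, 8.06 and 8.05 in LIRKO and 7.76, 7.87 and 7.87 in Flox (log2 fold change 0.12, 95% interval -0.18 to 0.43). The log2 fold changes of the 2 probe sets of *Stat5a* thus had opposite signs. On 100423_f_at, however, the groups overlapped, and its difference on LIRKO 1 was -0.07. In Affymetrix naming an _f_at probe set may match several members of a gene family, and *Stat5a* and *Stat5b* are closely similar, so that the gene read by it is uncertain. *Stat5b*, the main form in hepatocytes, read 7.48, 6.97 and 7.11 in LIRKO and 7.42, 7.51 and 7.39 in Flox. LIRKO 1 lay within the Flox arrays and the others below them, for a log2 fold change of -0.26 (95% interval -0.63 to 0.12, adjusted p = 0.332 from limma), and with LIRKO 1 alone it was 0.04.

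*Socs2*, which encodes a suppressor of cytokine signalling that restrains growth hormone action in mice, read 8.30, 6.78 and 8.05 on LIRKO 1 to LIRKO 3. On Flox 1 to Flox 3 it read 6.43, 6.20 and 7.05. LIRKO 1 and LIRKO 3 lay above every Flox array, whereas LIRKO 2 fell among them. The means were 7.71 ± 0.813 in LIRKO and 6.56 ± 0.437 in Flox (SD, n = 3 each), a log2 fold change of 1.15 (95% interval 0.15 to 2.15, adjusted p = 0.237 from limma). Its Flox level lay in the middle of all probe sets, at percentile 49.1, where the median difference was -0.01, 0.11 and 0.08 on the LIRKO arrays. *Cish*, which encodes the related inhibitor CIS, read 7.47, 7.59 and 7.51 in LIRKO and 7.25, 7.29 and 7.55 in Flox. The LIRKO arrays lay close together and overlapped Flox through Flox 3, for a log2 fold change of 0.16 (95% interval -0.14 to 0.47, adjusted p = 0.439 from limma). Neither inhibitor was lower in LIRKO on average, and for *Cish* the lower bound of the interval was -0.14.

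*Igf1*, the main secreted product of the axis, was read by 2 probe sets. Probe set 95546_g_at of *Igf1* read 11.11, 8.57 and 8.84 in LIRKO and 11.43, 11.34 and 11.49 in Flox. Probe set 95545_at of *Igf1* read 10.43, 9.12 and 9.50 in LIRKO and 10.91, 10.92 and 10.99 in Flox. On both, every LIRKO array was below every Flox array and LIRKO 1 was the nearest. The log2 fold changes were -1.91 (95% interval -3.39 to -0.43) and -1.26 (95% interval -2.0 to -0.51), each at an adjusted p of 0.237 from limma. The 2 probe sets differed by up to 1.14 in their difference from Flox on the same array, which was LIRKO 3 (-2.58 on 95546_g_at and -1.44 on 95545_at). On LIRKO 1 the larger difference was that of 95545_at (-0.51, against -0.31 on 95546_g_at).

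*Igfals*, whose product keeps IGF-1 in the circulation, had the smallest p of the 11 on 97987_at. This probe set of *Igfals* read 9.29, 7.59 and 8.22 in LIRKO and 10.32, 10.21 and 10.13 in Flox, with no overlap. The means were 8.37 ± 0.857 in LIRKO and 10.22 ± 0.0928 in Flox (SD, n = 3 each), 3.62-fold lower in LIRKO on the linear scale and a log2 fold change of -1.86 (95% interval -2.79 to -0.92, adjusted p = 0.237 from limma). The other probe set of *Igfals*, 162450_f_at, read 3.74, 3.75 and 3.50 in LIRKO and 4.17, 4.53 and 4.0 in Flox, a log2 fold change of -0.57 (95% interval -0.97 to -0.17, adjusted p = 0.237 from limma). It was the dimmest of the 11, at percentile 12.2 of all probe sets in Flox, so that its size is less certain than that of 97987_at. As an _f_at probe set it may also match other genes, so that the gene it reads is less certain too. Among probe sets of like level the median difference was above 0 on LIRKO 2 and LIRKO 3, at 0.24 and 0.15, while 162450_f_at was at -0.48 and -0.73 there.

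On LIRKO 1, the array without the level-dependent shift, 8 of the 11 probe sets lay below all 3 Flox arrays and *Socs2* lay above them. All 5 in the brightest group, those of *Ghr* and *Igf1* and 97987_at of *Igfals*, were below, against 36.1% of that group and 30.9% of all probe sets. For 100423_f_at of *Stat5a*, one of the 8, the distance to the nearest Flox array was less than the last digit given. When LIRKO 1 was tested alone, *Igfals* 97987_at was lower, at -0.93 (standard error 0.13, adjusted p = 0.0148 from limma), and *Socs2* was higher, at 1.74 (standard error 0.27, adjusted p = 0.0271 from limma). A single LIRKO pool has no spread of its own, so that of the Flox pools was used, and 0.725% of all probe sets were called. *Ghr* 99107_at, at -0.73, did not pass (adjusted p = 0.0543 from limma), nor did 99108_s_at (adjusted p = 0.142), *Igf1* 95545_at (adjusted p = 0.126) or 95546_g_at (adjusted p = 0.461). Without LIRKO 1, 8 of the 11 were called lower and none higher. As 26.7% of all probe sets were then called lower, this count rests on LIRKO 2 and LIRKO 3, the arrays that stood apart.

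**Figure D2:**
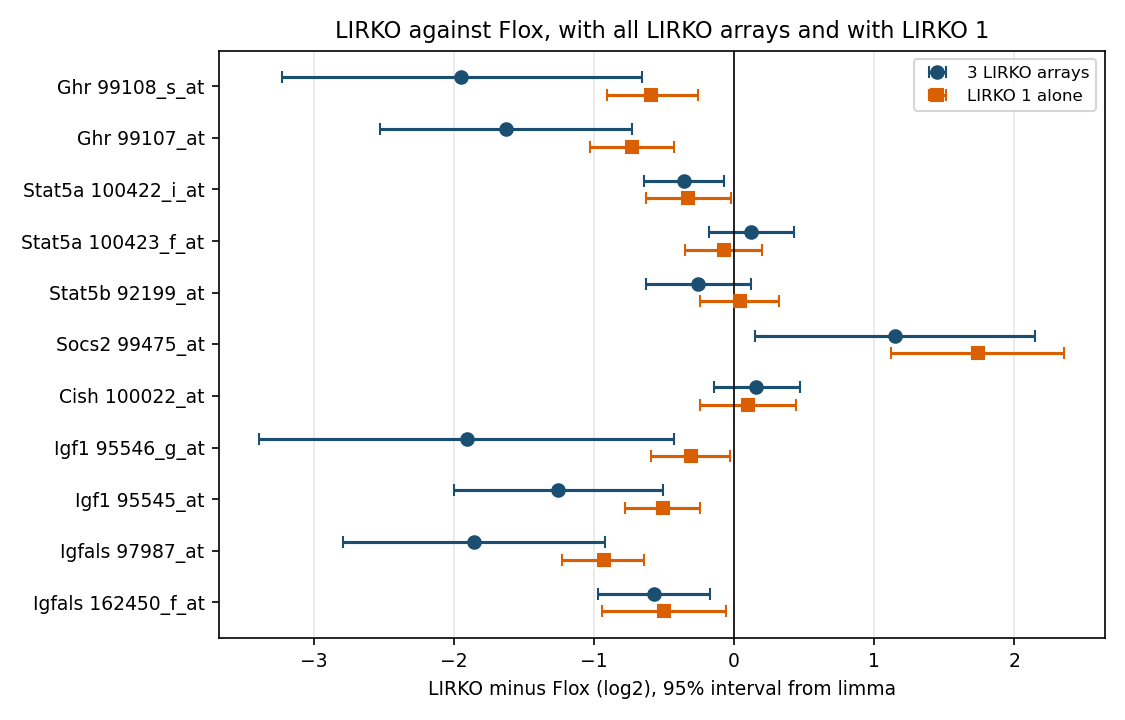
LIRKO minus Flox (log2, horizontal axis) for the 11 probe sets; blue circles compare all 3 LIRKO arrays with Flox and orange squares compare LIRKO 1 alone, with bars for the 95% interval from limma. The intervals of *Ghr*, *Igf1*, *Igfals* and *Stat5a* 100422_i_at lie below 0 in both comparisons and those of *Socs2* above 0, before adjustment over all probe sets, and those of *Stat5a* 100423_f_at, *Stat5b* and *Cish* span 0.

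At their own signal level the transcripts of *Ghr*, *Igf1* and *Igfals* still lay under most probe sets on all 3 LIRKO arrays. After the median of the brightest group was subtracted, *Ghr* 99108_s_at stood at -0.58, -1.73 and -1.54 in LIRKO 1 to LIRKO 3, and 97987_at of *Igfals* was at -0.92, -1.54 and -1.11. *Igf1* 95546_g_at was at -0.30, -1.76 and -1.68, and 95545_at at -0.50, -0.73 and -0.55. The last ranked at percentiles 6.6, 16.4 and 22.8 of its group, so that on LIRKO 2 and LIRKO 3 it was not far from other bright probe sets. *Igf1* 95546_g_at ranked at percentile 15.0 on LIRKO 1, so that it was not far from them there. *Ghr* 99107_at stood at -0.71, -1.25 and -0.93 after the same subtraction, at percentiles 3.30, 4.99 and 9.65. *Socs2* stood at 1.75, 0.12 and 1.42 by the same measure, which on LIRKO 1 was percentile 99.8 of its group. When the arrays were normalized again by cyclic loess, which removes level-dependent shifts, the log2 fold changes were -1.44 and -1.32 for *Ghr*, -1.26 and -0.63 for *Igf1*, -1.41 for *Igfals* 97987_at and 1.18 for *Socs2*, and none passed (adjusted p from 0.0948 to 0.212).

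**Figure D3:**
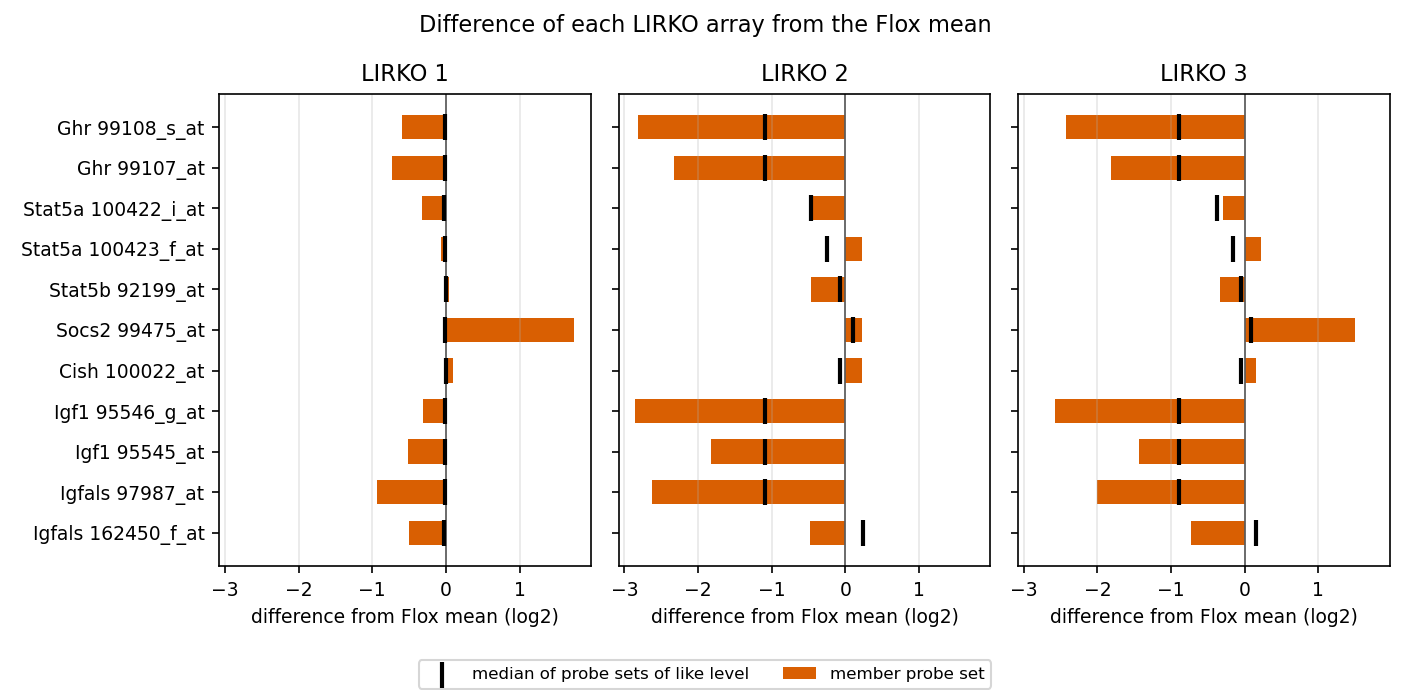
Difference from the Flox mean (log2, horizontal axis) of the 11 probe sets on LIRKO 1, LIRKO 2 and LIRKO 3, from left to right; orange bars are the probe sets and black marks are the median over probe sets of its level group. The bars of *Ghr* pass the black marks on every array, with -0.59, -2.82 and -2.43 on 99108_s_at, whereas those of *Stat5a* 100422_i_at end near them on LIRKO 2 and LIRKO 3.

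Likeness of pattern was measured as the root mean square distance between 6 differences from the Flox mean, 1 for each array, and only probe sets with 1 symbol were searched. The level-dependent shift was not removed first, so that for bright probe sets LIRKO 2 and LIRKO 3 weigh most in this distance. The nearest to *Ghr* 99108_s_at were those of *Gjb2*, a gap junction protein gene (distance 0.101 on the log2 scale), *Ces3a*, a carboxylesterase gene (0.117), and *Ttr*, which encodes transthyretin (0.120). *Ttr* is one of the hepatocyte markers, and its differences of -0.61, -2.76 and -2.28 on LIRKO 1 to LIRKO 3 stand beside -0.59, -2.82 and -2.43 for *Ghr*. It had the smallest p of the 8 measured hepatocyte markers, of which 7 had a log2 fold change below 0 and 1 above. On LIRKO 1, 5 of the 8 were below the Flox mean and 3 above. The markers that changed least were *Alb*, which encodes albumin, with -0.05, -0.22 and -0.17, and *Cps1*, a urea cycle gene, with 0.34, -0.12 and 0.07. For *Igf1* 95546_g_at the nearest were *Ces3a* (0.125), *Ghr* 99108_s_at (0.135) and *Scd1*, which encodes a stearoyl-CoA desaturase (0.149). On LIRKO 1, however, *Scd1* was at -0.01, against -0.31 for *Igf1* 95546_g_at and -0.59 for *Ghr* 99108_s_at. *Igfals* 97987_at was nearest to *Alas2* (0.172), *Lonp2* (0.173) and *Gjb2* (0.175). *Socs2* was farther from its nearest, the amino acid transporter gene *Slc38a2* at 0.379, *Sult1d1* at 0.399 and *Gpcpd1* at 0.407. *Stat5a* 100422_i_at was nearest to *Commd5*, *Exoc4* and *Arsa* (0.0392 to 0.0475), *Stat5b* to *Tspan9*, *Urm1* and *Atp5d* (0.0276 to 0.0325), and *Cish* to *Tspyl1*, *Nusap1* and *Kmt2e* (0.0481 to 0.0549), all of which, like their member, varied little. In whole liver, fewer hepatocytes and less of a transcript in each hepatocyte cannot be told apart.

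The wider receptor machinery showed no common direction. Of 13 measured genes for partners of the growth hormone receptor, none passed, and the median log2 fold change was 0.19, against -0.01 over all 8251 genes. Among them *Irs2* and *Irs1*, adaptors shared with the insulin receptor, had log2 fold changes of 0.40 and 0.41, *Shc1*, another adaptor, had one of -0.40, and *Ptpn1*, a phosphatase that acts on JAK2, one of -0.23 (adjusted p from 0.237 to 0.264 from limma). On LIRKO 1 alone *Irs2* and *Irs1* were at 0.18 and 0.01, *Shc1* at -0.20 and *Ptpn1* at -0.16. Of 13 other JAK, STAT, SOCS and PIAS genes none passed, with a median of -0.04, and the 4 smallest p were those of the kinase gene *Jak3* at -0.45, *Pias3* at -0.66, *Socs1* at 0.42 and *Pias2* at 0.27, the last 3 coding for inhibitors of the pathway. With LIRKO 1 alone *Jak3* was at -0.36, *Pias3* at -0.14, *Socs1* at -0.04 and *Pias2* at 0.28. Of 19 other class I cytokine receptors, the family of *Ghr*, only *Lepr*, the leptin receptor, passed. Its brightest probe set read 9.21 ± 0.226 in LIRKO and 3.99 ± 0.154 in Flox (SD, n = 3 each). The log2 fold change was 5.23, with an adjusted p of 0.000102 from limma. Another probe set of *Lepr*, with more signal in Flox than that one, rose less and did not pass. It read 6.39 in LIRKO and 5.21 in Flox, a log2 fold change of 1.18 (adjusted p = 0.237 from limma). The median of the family was 0.10. The next by p were *Il27ra* at 0.73, *Il4ra* at -0.50 and *Il12rb1* at -0.30, receptors for interleukins, and none of them passed. With LIRKO 1 alone they were at 0.15, -0.09 and -0.35. *Lifr*, a further receptor gene of the family, followed at -1.62 over all arrays (adjusted p = 0.237 from limma). Its differences from the Flox mean were -0.02, -2.62 and -2.21 on LIRKO 1 to LIRKO 3.

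In the rest of the IGF system, genes for a pair of binding proteins rose in LIRKO. *Igfbp1* read 11.67 ± 0.254 in LIRKO and 8.93 ± 0.397 in Flox (SD, n = 3 each), a rise of 2.74 on the log2 scale (adjusted p = 0.0257 from limma). *Igfbp2* read 13.08 ± 0.244 in LIRKO and 11.74 ± 0.0947 in Flox (SD, n = 3 each), a rise of 1.34 (adjusted p = 0.0463 from limma). The other 7 measured genes did not pass, and *Igfbp4*, a further binding protein gene, was at -1.0 over all arrays but at 0.12 on LIRKO 1. Among them *Igfbp3*, whose product is the usual partner of the acid-labile subunit, was at 0.22 (adjusted p = 0.308 from limma), *Igf2*, the fetal ligand, at 0.72 and *Igf1r*, the IGF-1 receptor, at 0.51 (adjusted p = 0.237 for both). On LIRKO 1 *Igf2* and *Igf1r* were at 0.13 and 0.08.

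Measured genes that need growth hormone pulses or STAT5b in male mouse liver all had negative log2 fold changes, and measured genes that are higher in females all had positive ones. Both lists were chosen with earlier results of these data known, so that the counts describe these genes and are not separate support. Of 32 listed genes of the first kind 16 were measured, and of 24 of the second kind 10. Those of *Mup3* and *Mup5* were read by _f_at probe sets, which may match several genes of a family. Of 16 measured genes of the first kind, none passed limma and all 16 were below 0, with a median log2 fold change of -1.28 and, by LIRKO array, -0.38, -1.83 and -1.54. After cyclic loess the median was -0.61, and after the median of each gene's level group was subtracted it was -0.37, -0.75 and -0.86. The brightest level group held 12 of the 16, and in it 87.8% of all 993 genes were below 0, so that the count over all arrays is near that of bright genes in general. On LIRKO 1 all 16 were again below the Flox mean. The 12 in the brightest group were thus all below, against 53.8% of all 993 genes of that group. *Hsd3b5*, a steroid dehydrogenase gene, read 7.10 ± 1.83 in LIRKO and 10.90 ± 0.243 in Flox (SD, n = 3 each), and *Cyp7b1*, an oxysterol hydroxylase gene, read 8.36 ± 0.788 in LIRKO and 10.53 ± 0.253 in Flox (SD, n = 3 each), with adjusted p of 0.237 and 0.223 from limma. *Serpina12*, a serine protease inhibitor gene, had a log2 fold change of -2.06 and *Cyp4a12b*, a fatty acid hydroxylase gene, one of -1.95 (adjusted p = 0.237 for both). Of 10 measured female-biased genes all 10 were above 0, with a median of 0.56 and, by LIRKO array, 0.76, 0.54 and 0.69, and 1 passed. This was *Cyp2b9*, a cytochrome P450 gene, at 3.51 (adjusted p = 0.0384 from limma). Its relatives *Cyp2b10* and *Cyp2b13* were at 2.01 and 1.10 (adjusted p of 0.0548 and 0.0665). Genes of this subfamily are closely similar, so that their probe sets may share signal. *Cux2*, a transcription factor that STAT5 represses in male mouse liver, was at 0.77 (adjusted p = 0.224). Over all genes, the log2 fold change was above 0 for 3986 and below 0 for 4265 of 8251.

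**Figure D4:**
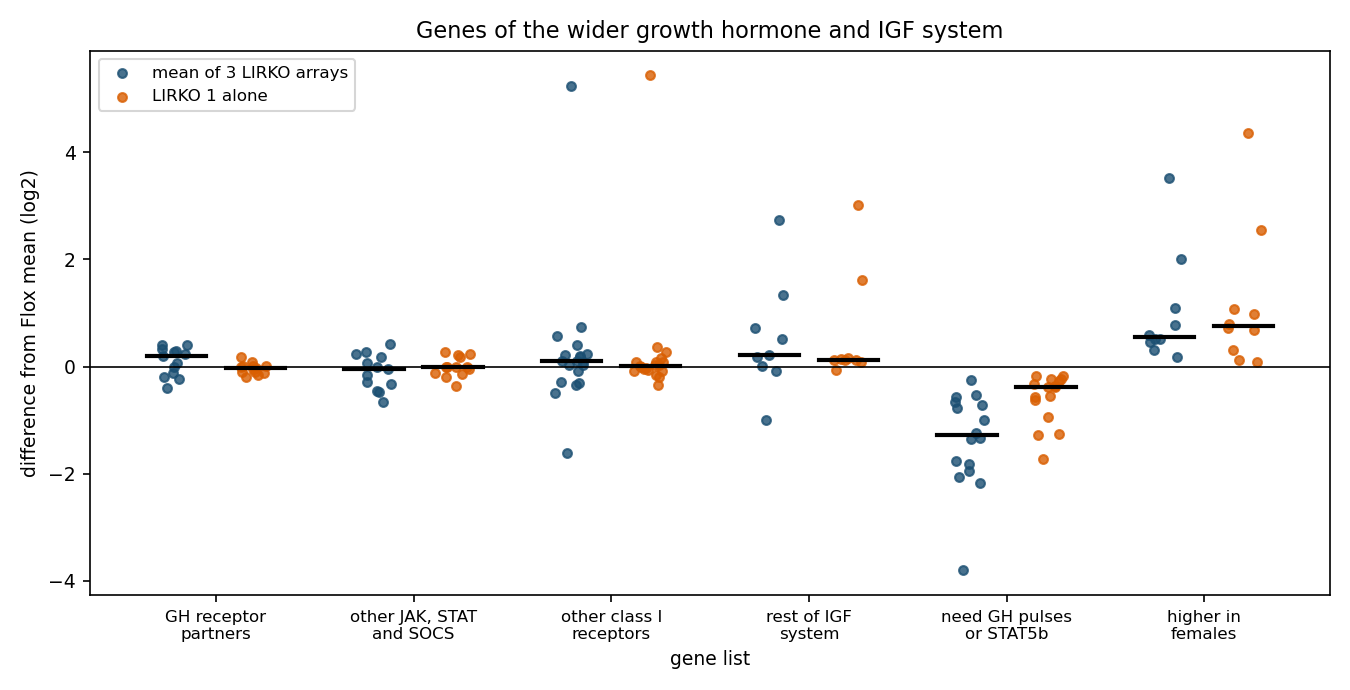
Difference from the Flox mean on the log2 scale (vertical axis), with 1 point per measured gene and 6 lists along the horizontal axis; blue is the mean of the 3 LIRKO arrays, orange is LIRKO 1, and a black bar marks each median. For all 3 arrays and for LIRKO 1, medians of genes that need growth hormone pulses or STAT5b lie at -1.28 and -0.38, those of female-biased genes at 0.56 and 0.76, and those of the other 4 lists between -0.04 and 0.22 for all 3 arrays.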

How the data were processed

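Pooled liver RNA was measured on 6 arrays. The authors used the affy and limma packages and deposited log2 values after RMA background correction and normalization. No source used here says whether the 6 arrays were normalized as 1 set. Of 12488 rows, 66 array controls were left out, and no filter or further scaling was applied. The 3 LIRKO arrays were tested against the 3 Flox arrays with lmFit and eBayes (limma 3.58.1, R 4.3.3) and Benjamini-Hochberg adjustment over 12422 probe sets and a threshold of 0.05, as in the study's methods. The test was tried on simulated data.

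Members were the probe sets whose annotated symbol is a member's alone, and all 11 were found under the same symbol by Entrez ID in the RefSeq gene table. Other genes were read by their brightest probe set. The genes named are the members, the genes of each list past the threshold or with the 4 smallest p, and the 3 nearest patterns. *Igfbp3*, *Igfbp4*, *Lifr*, *Alb* and *Cps1* fall outside this rule and were named after their values were seen. Members and lists were chosen with earlier results of these data known. Probe sets were split into 10 groups by Flox mean for the level-dependent shift. The alternatives were quantile and cyclic loess normalization, a filter on the dimmest 25%, an intensity trend in the variance, the methods' t-test, the sample number as a block, leaving out each array, and LIRKO 1 alone. Nothing says which mice went into which pool, and 3 arrays a group limit the precision. Promoters and figures were handled in Python 3.11.15 by numpy 2.4.6, pandas 2.3.3 and matplotlib 3.10.9.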

Additional observations from a re-analysis of the deposited data

Results flagged for a closer look

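Control transcripts added before hybridization, which no comparison used, read above Flox on the arrays that stood apart. Over 9 such probe sets the median difference from the Flox mean was 1.08 on LIRKO 2 and 0.962 on LIRKO 3, against -0.248 on LIRKO 1 and -0.233 to 0.177 on the Flox arrays. On the same arrays *Ghr* 99108_s_at was at -2.82 and -2.43 and *Igf1* 95546_g_at at -2.85 and -2.58, against -0.59 and -0.31 on LIRKO 1. The part of the controls' shift in these values was not tested.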

How the results depend on the processing

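The 16 probe sets called became 40 with cyclic loess, 90 with LIRKO 1 alone and 0 with the methods' t-test (728 at an unadjusted p under 0.05, against 923 higher and 1679 lower in limma), and between 2 (without LIRKO 2) and 6095 (without LIRKO 1) with 1 array left out. It was 5 without Flox 1 and 3 without LIRKO 3, Flox 2 or Flox 3. Of the 11 probe sets of the axis, 0 passed in limma with all arrays (8 at an unadjusted p under 0.05, and 2 in the methods' t-test), 2 passed with LIRKO 1 alone, and 0 to 8 passed with 1 array left out, with the 8 only when LIRKO 1 was left out. Signs held throughout, except that with LIRKO 1 alone *Stat5a* 100423_f_at turned to -0.07 and *Stat5b* to 0.04. After cyclic loess the size moved by over 1.5 times for *Igf1* 95545_at (-0.63) and 95546_g_at (-1.26) and for *Stat5a* 100422_i_at (-0.18) and 100423_f_at (0.26), and after quantile normalization for *Igf1* 95545_at (-0.79), both *Stat5a* probe sets (-0.21 and 0.26) and *Cish* (0.25), and the cause was not tested. With 1 array left out, small differences moved as much: *Stat5b* was at -0.40 without LIRKO 1 (adjusted p = 0.0147 from limma) and -0.15 without LIRKO 2, *Stat5a* 100423_f_at at 0.22 and 0.07 without the same arrays, and *Cish* at 0.10 without Flox 1 and 0.26 without Flox 3. Adding a block for the replicate number left 11 called in all and 0 in the axis. Deviations of same-numbered arrays correlated at 0.32, 0.40 and 0.09 across probe sets, and LIRKO 3 correlated best with Flox 2 (0.17), so the arrays were taken as unpaired. *Igfals* 162450_f_at was below the filter on dim probe sets and has no value there.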
